A study of Mus musculus with 12 samples.

Results

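The Dlk1-Dio3 imprinted cluster is a stretch of mouse chromosome 12 from which some genes are read only from the paternal chromosome and others only from the maternal one. Its 5 genes described here are Dlk1, Meg3, Rian, Mirg and Dio3, found by the gene symbol that follows the identifier in the deposited tables. They are 5 of 53379 gene entries. All 5 matched the symbols exactly and lie on the plus strand of GRCm38. RNA had been sequenced from ZHBTc4 cells, a mouse embryonic stem cell line of strain 129/Ola whose native Pou5f1 copies were destroyed. Pou5f1 encodes Oct4, which keeps stem cells pluripotent, and in every group here it was supplied by an inserted copy under tetracycline control, so that doxycycline stops its production. Phf6 knockout (KO) cells given doxycycline for 2 days (0.5 µg/ml per sample labels, but 0.5 mg/ml per protocol) stood beside doxycycline-treated wild type (WT) cells. KO cells given all-trans-retinoic acid over 4 days, with leukemia inhibitory factor left out of the medium, stood beside WT cells treated likewise, and untreated KO cells beside untreated WT cells. Each of the 6 groups had 2 libraries.

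Nothing in the labels says that replicates came from separate cultures. The p-values therefore reflect only the spread among these libraries, and that spread may be technical. The labels do not say how many knockout lines were used either, so the loss of Phf6 and other differences between the lines cannot be told apart. Early passages were kept on mouse fibroblast feeders and later ones on gelatin. In bulk RNA, fewer cells that express a gene and less RNA per cell cannot be told apart, and the parental chromosome that a read came from was not determined.

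Imprinting in this cluster is set by a control region between Dlk1 and Meg3 that is methylated on the paternal chromosome. The paternal copy then expresses the protein-coding genes Dlk1, Rtl1 and Dio3, and the maternal copy expresses a row of noncoding RNAs that begins with Meg3 and runs on through Rian and Mirg. In mouse pluripotent stem cells the cluster is known for variable silencing of the maternal RNAs between cell lines. Dlk1 encodes a membrane protein related to the Notch ligands that restrains adipocyte differentiation. Dio3 encodes the deiodinase that inactivates thyroid hormone. Meg3 is a long noncoding RNA, Rian a host of small nucleolar RNAs and microRNAs, and Mirg the host of a dense row of microRNAs.

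From upstream to downstream the genes were annotated as Dlk1 (ENSMUSG00000040856.17, chr12:109452823-109463336), Meg3 (ENSMUSG00000021268.17, chr12:109541001-109571726), Rian (ENSMUSG00000097451.10, chr12:109603940-109661716), Mirg (ENSMUSG00000097391.8, chr12:109729764-109749460) and Dio3 (ENSMUSG00000075707.5, chr12:110279068-110281097). The span from the first base of Dlk1 to the last of Dio3 is 828275 bases. Of the 6 promoter windows, 4 are printed because methylation acts on CpG dinucleotides and these windows differ widely in how many they hold; methylation itself was not measured. Each runs from 250 bases before to 50 after a RefSeq start site in GRCm38.p6, on the plus strand, with CpG in capitals. The windows are chr12:109452573-109452872 for Dlk1, chr12:109540746-109541045 for the first start of Meg3, chr12:109603695-109603994 for Rian and chr12:110278980-110279279 for Dio3.
Dlk1: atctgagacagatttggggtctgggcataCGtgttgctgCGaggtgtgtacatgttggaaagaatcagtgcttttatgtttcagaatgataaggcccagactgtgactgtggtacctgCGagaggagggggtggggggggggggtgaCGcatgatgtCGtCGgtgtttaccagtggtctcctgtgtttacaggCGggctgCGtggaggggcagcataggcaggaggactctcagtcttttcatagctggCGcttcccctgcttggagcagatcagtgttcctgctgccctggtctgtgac
Meg3: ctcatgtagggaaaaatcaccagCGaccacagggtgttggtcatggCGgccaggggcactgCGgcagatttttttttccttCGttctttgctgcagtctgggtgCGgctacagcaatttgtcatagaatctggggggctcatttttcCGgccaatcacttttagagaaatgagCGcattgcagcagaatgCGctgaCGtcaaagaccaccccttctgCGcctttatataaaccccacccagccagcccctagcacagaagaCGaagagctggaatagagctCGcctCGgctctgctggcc
Rian: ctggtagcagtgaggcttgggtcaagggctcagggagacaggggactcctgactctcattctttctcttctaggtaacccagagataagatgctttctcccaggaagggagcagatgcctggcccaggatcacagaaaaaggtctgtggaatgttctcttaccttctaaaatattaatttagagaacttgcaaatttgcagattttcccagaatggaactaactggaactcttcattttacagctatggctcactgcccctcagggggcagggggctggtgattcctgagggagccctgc
Dio3: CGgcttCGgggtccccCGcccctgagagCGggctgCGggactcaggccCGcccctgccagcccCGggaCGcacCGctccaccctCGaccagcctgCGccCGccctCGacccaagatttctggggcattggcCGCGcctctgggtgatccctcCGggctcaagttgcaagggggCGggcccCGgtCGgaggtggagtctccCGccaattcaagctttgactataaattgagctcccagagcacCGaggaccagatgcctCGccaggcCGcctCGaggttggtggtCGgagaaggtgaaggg

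The Dio3 window held 25 CpG and 69.0% G or C, and 18.4% of 32851 RefSeq promoters held as many CpG or more. The first Meg3 window held 13 CpG (37.9% of promoters held as many or more), the Mirg window 10 (43.5%) and the Dlk1 window 9 (45.8%), against a median of 7 over all promoters. The second Meg3 start, inside the gene, had 1 CpG in its window, and the Rian window had 0. The RefSeq start of Mirg, at base 109734981, also lies well inside the annotated gene, which begins at base 109729764. Its window holds the microRNA genes Mir668 and Mir485. Both strands were searched for 4 motifs. TGCCGC, the methylated motif bound by ZFP57, a zinc finger protein that protects imprints, had 1 match, at base 61 of the first Meg3 window on the minus strand, and 11.61% of all promoters hold it. The octamer ATGCAAAT, bound by Oct4, had no match in the 6 windows of the 5 genes (1.74% of all promoters). AGGTCA, the element of nuclear receptors such as those for retinoic acid, had 1 match, in the second Meg3 window (16.26%). TATAAA occurred in the first Meg3 window, where the matches on the 2 strands overlap, and in the Dio3 window (13.62%). A match describes letters only, and a missing match says nothing about a factor.

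RefSeq places 2 microRNA hairpins inside Meg3, 3 inside Rian and 14 inside Mirg, and 58 hairpins with 114 mature sequences in the whole span. A mature sequence of each host is printed to show what these RNAs carry, together with the only microRNAs of the 3 hosts that share a seed, miR-453 and miR-496a-5p of Mirg. Capitals mark the seed, bases 2 to 8.
mmu-miR-770-5p in Meg3: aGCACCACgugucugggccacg
mmu-miR-370-3p in Rian: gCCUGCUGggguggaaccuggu
mmu-miR-410-3p in Mirg: aAUAUAACacagauggccugu
mmu-miR-453 in Mirg: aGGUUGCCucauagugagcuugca
mmu-miR-496a-5p in Mirg: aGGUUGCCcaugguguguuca

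These small RNAs were not measured: the 67 microRNA genes and 23 small nucleolar RNA genes annotated in the span had 0 counts in all 12 libraries. Values below therefore describe the host RNAs. Libraries held 15799517 to 21441996 counts. A count of 0 allows up to 3 counts per library, equal to 0.132 to 0.204 CPM (counts relative to the scaled library size), and such floors and the counting intervals below cover counting error only. Phf6, the targeted gene, averaged 5.49 to 7.78 CPM in the KO groups, against 32.5 to 41.4 CPM in the WT groups. Pou5f1 averaged 13.7 CPM in doxycycline-treated KO cells and 40.2 CPM in doxycycline-treated WT cells, against 982 to 1193 CPM in the other groups, retinoic acid included.

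In untreated cells, KO libraries had almost none of the 3 noncoding RNAs and less Dio3, while Dlk1 was low in both lines. Of the 5 genes, 4 were called lower in KO than in WT and none higher (adjusted p under 0.05, edgeR's quasi-likelihood test over 17884 genes). Over all genes tested, 30.0% were called, 15.2% higher and 14.9% lower. The median log2 change was -2.98 over the 5 genes and 0.02 over all genes.

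Meg3 had 0 and 0 counts in untreated KO libraries, against 32 and 38 counts in untreated WT libraries. No read of Meg3 was seen in the knockout, and set against a floor of 3 counts per library the level was at least 11.3-fold lower (adjusted p = 1.3e-08). Rian had 5 and 9 counts in untreated KO libraries, against 71 and 45 counts in untreated WT libraries. The groups were far apart and the log2 change was -2.98 ± 0.34 (SE, adjusted p = 6.3e-08), a level 8.03-fold lower in KO with a counting interval of 4.6 to 15.2. Mirg had 0 and 0 counts in untreated KO libraries, against 6 and 8 counts in untreated WT libraries. It was at least 2.27-fold lower (adjusted p = 0.005), but it passed the low-count filter only through the WT retinoic acid libraries, so its calls against that group are a description and not support. Leaving Mirg aside, 3 of the other 4 genes were called lower here. Added together, the 3 noncoding RNAs had 5 and 9 counts in untreated KO libraries and 109 and 91 counts in untreated WT libraries.

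Dio3 had 87 and 65 counts in untreated KO libraries, against 170 and 163 counts in untreated WT libraries. Every KO library lay below every WT library, with a mean of 4.76 ± 1.15 CPM in KO and 10.1 ± 0.107 CPM in WT (SD, n = 2 each) and a log2 change of -1.08 ± 0.16 (adjusted p = 3.5e-06). Dlk1 had 20 and 20 counts in untreated KO libraries, against 27 and 24 counts in untreated WT libraries. The KO libraries were slightly lower without overlap, but the log2 change of -0.30 ± 0.29 did not pass the test (adjusted p = 0.49) and was 0.031 on the log2(TPM + 0.1) scale (limma).

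**Figure D1:**
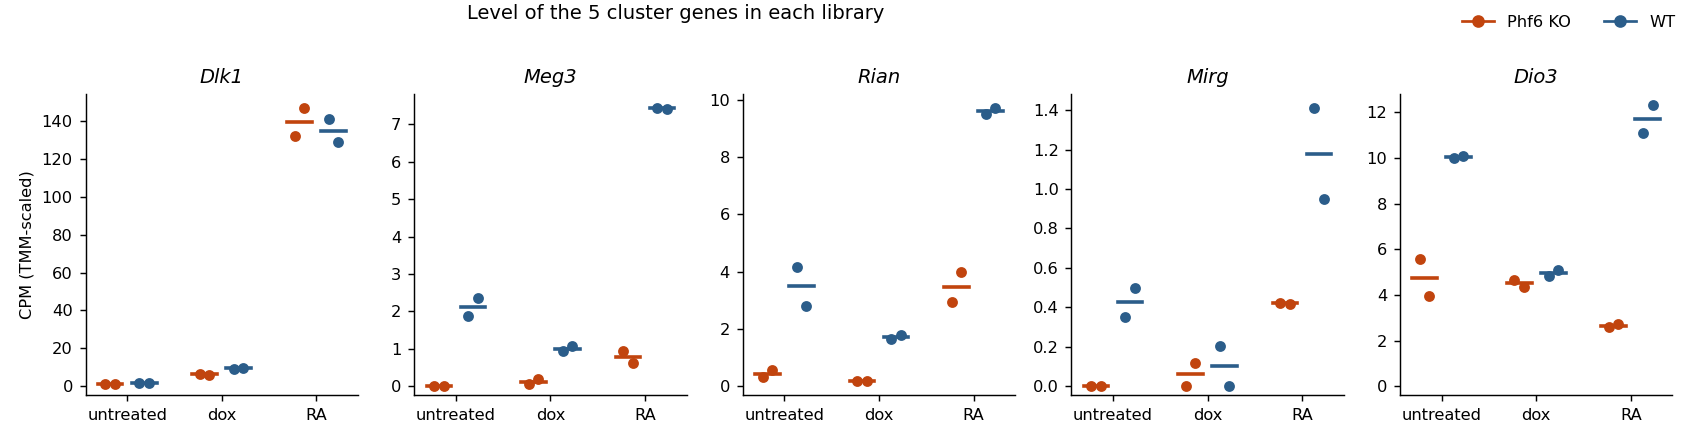
Level of each gene in each library, in CPM scaled by TMM factors, with KO in orange left of WT in blue under each condition (dox, doxycycline; RA, retinoic acid). Points are single libraries and bars are means of 2; each panel has its own axis, and Meg3 in untreated KO cells sits at 0 while WT cells with retinoic acid reach 7.43 CPM.

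After doxycycline, Meg3 and Rian were again far lower in KO cells, Dlk1 was moderately lower, and Dio3 differed little. Pou5f1 was also called lower in KO here, with a log2 change of -1.57 ± 0.13 (adjusted p = 1.9e-06). The remaining Pou5f1 RNA and the loss of Phf6 cannot be told apart in this comparison. Of the 5 genes, 3 were called lower in KO and none higher, where 37.0% of all genes were called, 17.9% higher and 19.1% lower. The median log2 change was -0.60 over the 5 genes and 0 over all genes.

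Meg3 had 1 and 3 counts in doxycycline-treated KO libraries, against 14 and 21 counts in doxycycline-treated WT libraries. The KO values were at or under the floor, and the log2 change was -3.06 ± 0.56 (adjusted p = 6.9e-05), 8.78-fold lower with a counting interval of 3.14 to 34.0. The size rested on those few reads: the log2 change was -2.45 without replicate 1 of KO, -4.02 without replicate 2 of KO and -6.91 with the deposited effective lengths in the fit, and it passed the test each time. Rian had 3 and 3 counts in doxycycline-treated KO libraries, against 24 and 35 counts in doxycycline-treated WT libraries. The groups were again separate, with a log2 change of -3.25 ± 0.46 (adjusted p = 1.8e-06), 9.87-fold lower with a counting interval of 4.27 to 28.0. Mirg had 0 and 2 counts in doxycycline-treated KO libraries and 3 and 0 counts in doxycycline-treated WT libraries, at or under the floor in both lines, so no fold is given.

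Dlk1 had 118 and 97 counts in doxycycline-treated KO libraries, against 135 and 190 counts in doxycycline-treated WT libraries. Scaled to library size this was 6.60 and 5.79 CPM in KO and 9.19 and 9.58 CPM in WT, without overlap, and the log2 change was -0.60 ± 0.13 (adjusted p = 0.00048). The call was lost when the deposited effective lengths entered the fit (log2 change -0.20, adjusted p = 0.25) and on the TPM values, where KO libraries had 7.22 and 7.73 TPM and WT libraries 7.83 and 8.74 TPM. Dio3 had 83 and 73 counts in doxycycline-treated KO libraries and 71 and 101 counts in doxycycline-treated WT libraries. The log2 change of -0.14 ± 0.17 did not pass the test (adjusted p = 0.56).

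With retinoic acid, Dlk1 was abundant and close in both lines, while the noncoding RNAs and Dio3 were lower in KO. Of the 5 genes, 4 were called lower in KO and none higher, where 38.8% of all genes were called, 18.8% higher and 20.0% lower. Meg3, Rian and Dio3 were called, and so was Mirg. Mirg passed the low-count filter only through the WT retinoic acid libraries compared here, so its call is a description and not support. The median log2 change was -1.48 over the 5 genes, the value of Mirg itself, and -0.01 over all genes.

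Meg3 had 20 and 12 counts in retinoic acid-treated KO libraries, against 169 and 149 counts in retinoic acid-treated WT libraries. KO cells had 0.781 ± 0.218 CPM and WT cells 7.43 ± 0.00622 CPM (SD, n = 2 each), and the log2 change was -3.23 ± 0.26 (adjusted p = 7.5e-11). Rian had 63 and 76 counts in retinoic acid-treated KO libraries, against 216 and 195 counts in retinoic acid-treated WT libraries. Its reads were thus still plentiful in KO, and the log2 change was -1.48 ± 0.18 (adjusted p = 2.1e-07). Mirg had 9 and 8 counts in retinoic acid-treated KO libraries, against 32 and 19 counts in retinoic acid-treated WT libraries. The log2 change was -1.48 ± 0.53 (adjusted p = 0.027), 2.84-fold lower with a counting interval of 1.61 to 5.24. This call rested on few reads and was lost in 5 of 12 alternatives. The log2 change was -1.16 without replicate 1 of WT and -1.48 without replicate 1 or replicate 2 of KO. It was -1.16 with the deposited effective lengths in the fit (adjusted p = 0.28) and -1.03 on log2(TPM + 0.1) (adjusted p = 0.39, limma).

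Dio3 had 55 and 52 counts in retinoic acid-treated KO libraries, against 253 and 246 counts in retinoic acid-treated WT libraries. This was the widest gap of Dio3 among the 3 conditions, 2.64 ± 0.103 CPM in KO and 11.7 ± 0.799 CPM in WT (SD, n = 2 each), with a log2 change of -2.14 ± 0.16 (adjusted p = 1.1e-11). Dlk1 had 2817 and 2822 counts in retinoic acid-treated KO libraries and 3205 and 2585 counts in retinoic acid-treated WT libraries. Its libraries overlapped between the lines, with a log2 change of 0.05 ± 0.06 (adjusted p = 0.56).

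**Figure D2:**
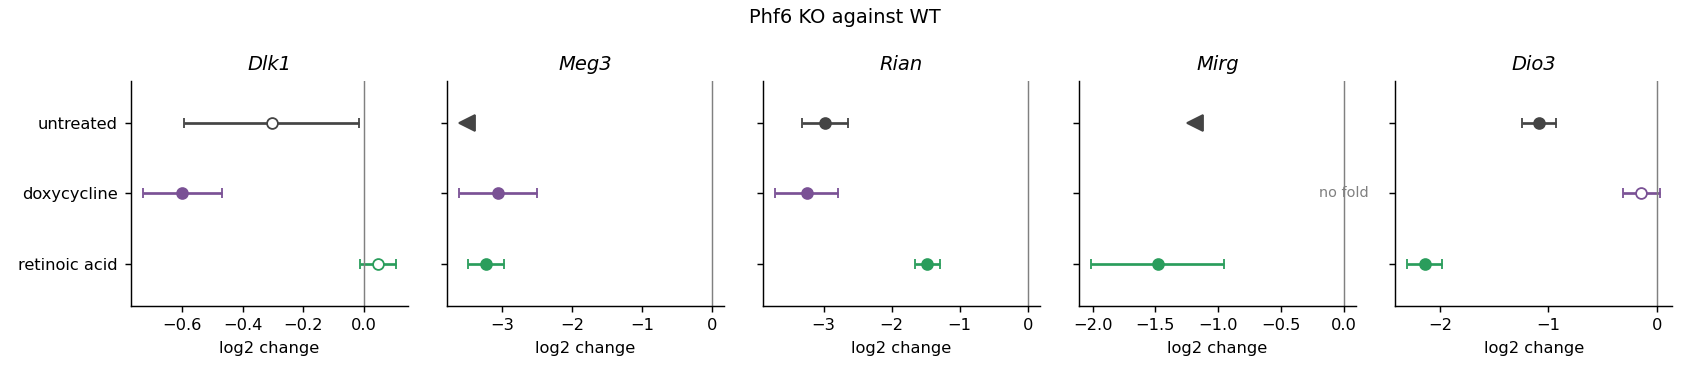
Log2 change of each gene in KO against WT cells, with 1 line per condition; points are edgeR estimates, bars are ± 1 SE, filled points passed an adjusted p of 0.05, triangles mark a smallest possible change where all KO libraries had 0 counts, and each panel has its own axis. Meg3 and Rian lie left of 0 in all 3 conditions, with Rian at -3.25 with doxycycline, while Dlk1 with retinoic acid lies at 0.05.

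With retinoic acid Dlk1 and the noncoding RNAs were higher than in untreated cells of either line, and Dio3 was called lower in KO cells but not called in WT cells. Per the labels' protocols, the retinoic acid libraries alone were made from RNA extracted with a Qiagen RNeasy kit, so kit and treatment cannot be told apart here. In KO cells all 5 genes were called, 4 higher and 1 lower than in untreated cells, where 75.5% of all genes were called, 40.9% higher and 34.6% lower. In WT cells 4 of the 5 were called, all higher, where 73.9% of all genes were called, 41.0% higher and 32.9% lower. With so many genes called, the counts say little about these 5. The WT calls were Dlk1, Meg3, Rian and Mirg. Mirg passed the low-count filter only through the WT retinoic acid libraries, so its call in WT is a description and not support. The median log2 change of the 5 genes in WT was 1.47, the value of Mirg itself, against 0.12 over all genes.

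Dlk1 averaged 139.6 ± 11.1 CPM in retinoic acid-treated KO cells and 1.25 ± 0.0465 CPM in untreated KO cells (SD, n = 2 each). The log2 change was 6.80 ± 0.12, or 111-fold (adjusted p = 6.8e-27). In WT cells it averaged 134.9 ± 8.60 CPM with retinoic acid and 1.54 ± 0.0661 CPM without treatment (SD, n = 2 each), a log2 change of 6.45 ± 0.11, or 87.2-fold (adjusted p = 1.8e-26). Meg3 in KO cells, with 20 and 12 counts after retinoic acid and none before, was at least 4.17-fold higher (adjusted p = 1.9e-06). In WT cells it rose by a log2 change of 1.81 ± 0.22 (adjusted p = 5.2e-08). Even so, Meg3 in retinoic acid-treated KO cells, at 0.781 CPM, stayed below untreated WT cells, at 2.12 CPM.

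Rian rose by a log2 change of 2.96 ± 0.33 in KO cells (adjusted p = 5e-09) and of 1.46 ± 0.19 in WT cells (adjusted p = 9.3e-08). With retinoic acid its KO libraries, at 2.95 and 3.97 CPM, overlapped the untreated WT libraries, at 4.17 and 2.80 CPM. Mirg was at least 2.24-fold higher in KO cells (adjusted p = 0.0013), and in WT cells the log2 change was 1.47 ± 0.55 (adjusted p = 0.019). Among 13 alternatives, 5 lost the call in WT. That call in WT was lost without replicate 1 of the untreated libraries (adjusted p = 0.12) and without replicate 1 of the retinoic acid libraries (adjusted p = 0.16). Dio3 fell by 0.84 ± 0.19 on the log2 scale in KO cells (adjusted p = 0.00022), which was lost on TPM values, at -0.31 on the log2(TPM + 0.1) scale (adjusted p = 0.17, limma). In WT cells the log2 change of Dio3 was 0.21 ± 0.13 (adjusted p = 0.14), and on the log2(TPM + 0.1) scale it was 0.68 and passed the test (adjusted p = 0.0082, limma).

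With doxycycline, which removes Oct4, Dlk1 rose in both lines, and in WT cells the other 4 genes fell. In KO cells 2 of the 5 were called, both higher, where 62.3% of all genes were called, 31.2% higher and 31.2% lower. In WT cells all 5 were called, 1 higher and 4 lower, where 63.0% of all genes were called, 31.8% higher and 31.3% lower.

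Dlk1 averaged 6.19 ± 0.569 CPM in doxycycline-treated KO cells, against 1.25 CPM in untreated KO cells, a log2 change of 2.31 ± 0.21 (adjusted p = 1e-10). In WT cells it averaged 9.38 ± 0.279 CPM with doxycycline, against 1.54 CPM without, a log2 change of 2.60 ± 0.18 (adjusted p = 3.2e-13). No library of the treated groups overlapped an untreated one. Dio3 in WT cells had 71 and 101 counts with doxycycline and 170 and 163 without, and fell by 1.02 ± 0.15 on the log2 scale (adjusted p = 1.4e-06). In KO cells Dio3 already lay at the level of the doxycycline-treated WT cells, and the log2 change was -0.08 ± 0.18 (adjusted p = 0.73).

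In WT cells Meg3 fell by 1.06 ± 0.31 on the log2 scale with doxycycline (adjusted p = 0.0038) and Rian by 1.03 ± 0.25 (adjusted p = 0.00072). On log2(TPM + 0.1) both calls were lost, with changes of -0.61 for Meg3 (adjusted p = 0.067, limma) and -0.68 for Rian (adjusted p = 0.063), and on log2(TPM + 1) that of Rian was lost as well (-0.54, adjusted p = 0.054). Mirg, with 3 and 0 counts against 6 and 8, was 4.87-fold lower with a counting interval of 1.36 to 26.4 (adjusted p = 0.04). Among 13 alternatives, 8 lost this call. The Mirg call was lost without replicate 1 (adjusted p = 0.058) or replicate 2 (adjusted p = 0.16) of the untreated libraries and without replicate 2 of the doxycycline libraries (adjusted p = 0.37). In KO cells Meg3 was called (adjusted p = 0.036) on 1 and 3 counts with doxycycline against 0 and 0 without, both at or under the floor, so no fold is given. That call was lost without replicate 1 (adjusted p = 0.12) or replicate 2 (adjusted p = 0.13) of the untreated libraries and without replicate 2 of the doxycycline libraries (adjusted p = 0.22). Rian in KO cells had 3 and 3 counts with doxycycline and 5 and 9 without (adjusted p = 0.078).

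**Figure D3:**
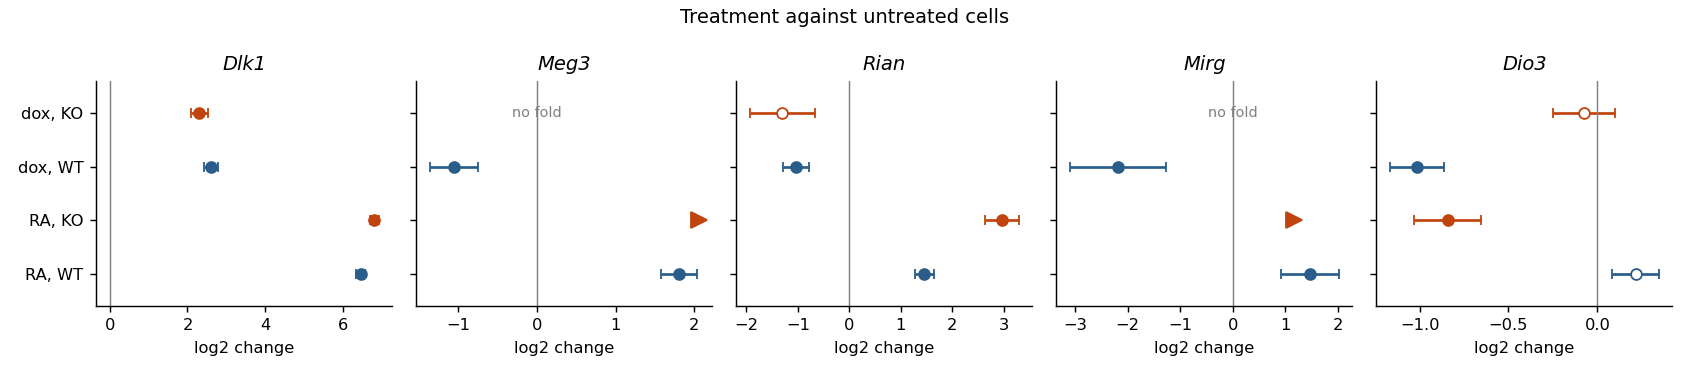
Log2 change of each gene in treated against untreated cells of the same line (dox, doxycycline; RA, retinoic acid), with KO in orange above WT in blue; bars are ± 1 SE, filled points passed an adjusted p of 0.05, triangles mark a smallest possible change against libraries with 0 counts, "no fold" marks groups at or under the floor, and each panel has its own axis. Dlk1 lies between 2.31 and 6.80 in both lines, while Dio3 with doxycycline lies at -0.08 in KO and -1.02 in WT.

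The difference between the lines in each response was tested in the same fit, and these contrasts share their untreated libraries. Pou5f1 itself fell further with doxycycline in KO than in WT, with a difference of -1.80 ± 0.16 (adjusted p = 9.6e-06). For doxycycline, 2 of the 5 genes were called, both with a higher change in KO, where 19.2% of all genes were called, 9.11% higher and 10.0% lower. For retinoic acid, 3 were called, 2 with a higher and 1 with a lower change in KO, where 17.7% of all genes were called, 7.31% higher and 10.3% lower. Dio3 was called for both: the change with doxycycline was higher in KO by 0.94 ± 0.23 (adjusted p = 0.0044) and the change with retinoic acid was lower in KO by -1.06 ± 0.23 (adjusted p = 0.0014). Without replicate 2 of the untreated KO libraries the first was 0.71 and missed the threshold (adjusted p = 0.052). It was also lost with the deposited effective lengths in the fit (0.76, adjusted p = 0.11), on log2(TPM + 0.1) (0.76, adjusted p = 0.11, limma) and on log2(TPM + 1) (0.65, adjusted p = 0.083), and the difference for retinoic acid was lost on log2(TPM + 0.1) (-0.98, adjusted p = 0.052). The response of Dlk1 was not shown to differ, with differences of -0.30 ± 0.32 for doxycycline (adjusted p = 0.6) and 0.35 ± 0.30 for retinoic acid (adjusted p = 0.49).

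Rian rose more in KO than in WT with retinoic acid, by 1.50 ± 0.42 on the log2 scale (adjusted p = 0.011). This call was lost without replicate 1 of the untreated WT libraries (adjusted p = 0.077), replicate 1 of the untreated KO libraries (adjusted p = 0.12) or replicate 2 of the retinoic acid KO libraries (adjusted p = 0.058). It was also lost with the deposited effective lengths in the fit (0.72, adjusted p = 0.43), with DESeq2 (adjusted p = 0.054) and on log2(TPM + 0.1) (0.48, adjusted p = 0.53, limma), and on log2(TPM + 1) the difference was -0.055 (adjusted p = 0.94). Meg3 was called for doxycycline (adjusted p = 0.028) and retinoic acid (adjusted p = 0.009), but its fitted differences start from 0 counts in untreated KO cells and give no size. Leaving out replicate 1 or 2 of the untreated KO libraries ended both calls of Meg3 (adjusted p = 0.1 and 0.11 for doxycycline, 0.066 and 0.073 for retinoic acid), as did leaving out replicate 2 of the doxycycline KO libraries for doxycycline (adjusted p = 0.23). The doxycycline call of Meg3 was also lost with the effective lengths (adjusted p = 0.39), DESeq2 (adjusted p = 0.059) and on both TPM scales (adjusted p = 0.2 each), and its retinoic acid difference was -0.62 on log2(TPM + 1) (adjusted p = 0.076).

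Ordered by mean CPM, WT cells with retinoic acid had the highest level of Meg3, Rian, Mirg and Dio3, and their Dlk1 overlapped that of the KO cells. Untreated WT cells came next for these 4 genes; for Rian and Mirg their libraries overlapped those of retinoic acid-treated KO cells, which stood just below them in the order. Dlk1 followed treatment: both retinoic acid groups, then both doxycycline groups, then both untreated groups. For Dio3 the doxycycline-treated WT, untreated KO and doxycycline-treated KO groups, at 4.96, 4.76 and 4.50 CPM, overlapped with their neighbours, and KO cells with retinoic acid were lowest at 2.64 CPM. Per length, in TPM (transcript shares that allow for length), Dlk1 exceeded the other genes by far in retinoic acid-treated cells, with 193.2 TPM in KO and 174.2 TPM in WT, against 2.73 TPM in KO and 11.3 TPM in WT for Dio3. The TPM of Meg3 is uncertain, since its deposited effective length, which depends on the isoforms the reads were given to, was between 608 and 14378 bases among libraries.

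Over the 12 libraries, which share their 6 groups, log2(CPM + 1) of the noncoding RNAs varied together, with a Pearson r of 0.92 between Meg3 and Rian and 0.91 for Mirg with each. For Dio3, r was 0.77 with Meg3 and -0.079 with Dlk1. Among 14695 genes with at least 1 CPM on average and more than 1 Mb away, those most like Dlk1 were Meis1 (r = 0.996), a homeobox gene, Colec12 (0.994) and Zfp503 (0.994). Among the 3 most like Meg3 were Plagl1 (0.974), itself an imprinted gene, and Zmym3 (0.96). Plagl1 averaged 0.032 CPM in untreated KO cells and 1.91 CPM in untreated WT cells, and 0.375 CPM in KO and 7.05 CPM in WT with retinoic acid. Rian was most like Aim2 (0.977), Amer1 (0.974) and Gm44660 (0.968), Mirg like Fmn2 (0.961), Yod1 (0.961) and Aim2 (0.957), and the 3 most like Dio3 included Cnih4 (0.954) and Dppa3 (0.943). Of the 14 different genes that the search gave, 6 lie on chromosome 1, which held 5.72% of the genes searched. Over 840 genes of chromosome 1 the median log2 change in KO against WT was -0.47 in untreated, -0.48 in doxycycline-treated and -0.47 in retinoic acid-treated cells. Over 539 genes of chromosome 12 it was 0.05, 0.06 and 0.04 in the same order, so the chromosome of the cluster was not lower as a whole. The part of the chromosome 1 shift in these likenesses was not tested.

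Within the span, 113 other genes are annotated, 103 of them had no count in any library, and 3 reached 10 counts in some library. Rtl1, a paternally expressed gene derived from a retrotransposon, had 14 and 12 counts in retinoic acid-treated KO libraries and 22 and 15 counts in retinoic acid-treated WT libraries, and 5 or fewer in every other library. It was not called between the lines in any condition (adjusted p = 0.25 untreated, 0.2 with doxycycline and 0.51 with retinoic acid). Rtl1 passed the low-count filter only through the retinoic acid libraries, so its higher counts there are a description and not support. Gm3379 had at most 25 counts and AL591207.1 at most 18, and neither was called between the lines (lowest adjusted p = 0.099 and 0.17). Of the genes that overlap the 5 on either strand, none had more than 1 count, so overlapping genes took hardly any reads; the strand setting of the counting is not given in the sources used here.

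Outside the span, 29 genes within 1 Mb were tested. In KO against WT, 6 were called higher and 1 lower in untreated cells, 4 higher and 1 lower with doxycycline, and 4 higher and 3 lower with retinoic acid. Over all genes, 30.0%, 37.0% and 38.8% were called in the same conditions. Of all genes, 15.2%, 17.9% and 18.8% were called higher and 14.9%, 19.1% and 20.0% lower. The median log2 changes of the 29 flanking genes were 0.10, 0.16 and 0.08, against -2.98, -0.60 and -1.48 for the 5 cluster genes. The last of these, -1.48, is the value of Mirg, which passed the low-count filter only through the WT retinoic acid libraries. It is therefore a description and not support. The nearest on the Dlk1 side was Begain, 384606 bases away, which encodes a protein of synapses. It had 52 and 55 counts in untreated KO libraries, against 36 and 32 counts in untreated WT libraries. It was higher in KO in all 3 conditions, by a log2 change of 0.70 ± 0.24 untreated (adjusted p = 0.029), 1.43 ± 0.36 with doxycycline (adjusted p = 0.0024) and 1.35 ± 0.20 with retinoic acid (adjusted p = 3.6e-06). The nearest on the Dio3 side, Ppp2r5c, was not called in any condition, with log2 changes of 0.08, 0.09 and 0.07. Wdr25, next to Begain, was called higher in untreated KO cells (0.50 ± 0.13, adjusted p = 0.0039), while Wars, Gm19605 and AC152827.1 were not called between the lines. Amn, at 989998 bases on the Dio3 side, was the only flanking gene besides Begain called between the lines with a log2 change of at least 1 in size, at 2.07 ± 0.15 with retinoic acid (adjusted p = 4.5e-12).

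**Figure D4:**
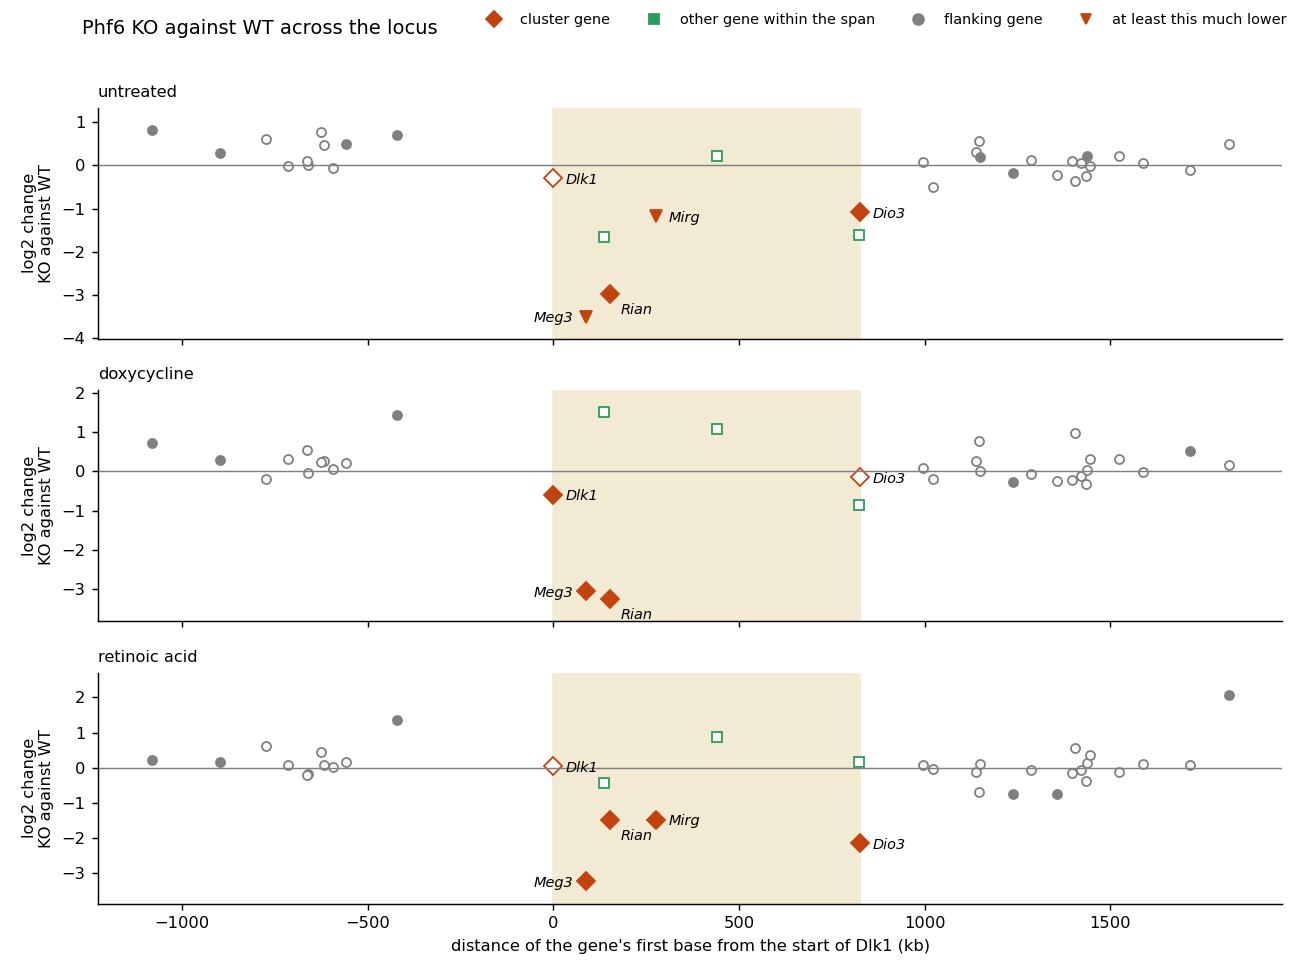
Log2 change in KO against WT of the tested genes by the distance of their first base from the start of Dlk1, in kb, with 1 panel per condition; the shaded band runs from the start of Dlk1 to the start of Dio3. Orange diamonds are the cluster genes, orange triangles their smallest possible change where KO libraries had 0 counts, green squares other genes of the span and grey circles flanking genes, filled where the adjusted p was under 0.05; Mirg with doxycycline has no fold and is left out. Flanking genes lie between -0.76 and 2.07 in the 3 panels, while Meg3 and Rian lie at -1.48 or below.

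Of 20 genes that set, read or protect DNA methylation and Polycomb marks at imprinted loci, 6 were called higher and 6 lower in untreated KO cells than in WT cells, where 15.2% of all genes were called higher and 14.9% lower. With doxycycline 2 were higher and 10 lower, against 17.9% and 19.1% of all genes, and with retinoic acid 2 were higher and 11 lower, against 18.8% and 20.0% of all genes. The median log2 change of the list was 0.01 in untreated cells, -0.20 with doxycycline and -0.26 with retinoic acid. Zfp57, the protector of imprints, averaged 984 ± 14.4 CPM in untreated KO cells and 694.5 ± 8.53 CPM in untreated WT cells (SD, n = 2 each), a log2 change of 0.50 ± 0.05 (adjusted p = 4.2e-09). Dppa3, whose protein shields maternal methylation in the zygote, was lower in KO in all 3 conditions. Untreated KO and WT cells had 0.534 and 2.10 CPM (log2 change -1.96 ± 0.40, adjusted p = 0.00035). The log2 change was -2.09 ± 0.50 with doxycycline (adjusted p = 0.0014) and -4.33 ± 0.45 with retinoic acid (adjusted p = 7.5e-09). KO levels were then at or near the floor, so these sizes are uncertain. KO and WT cells had 0.259 and 1.12 CPM with doxycycline, and 0.151 and 3.12 CPM with retinoic acid. Dnmt3l, the cofactor of the de novo methyltransferases, was lower in KO in untreated cells (-0.57 ± 0.06, adjusted p = 1.6e-08) and with doxycycline (-1.16 ± 0.08, adjusted p = 9.5e-13) and higher with retinoic acid (0.55 ± 0.06, adjusted p = 2.4e-08). Tet2, an enzyme that oxidises methylated cytosine, was higher in untreated KO cells (0.61 ± 0.06, adjusted p = 4.4e-07) and lower with retinoic acid (-0.88 ± 0.07, adjusted p = 3.1e-09). Against untreated cells, 4 of the list were higher and 15 lower with doxycycline in KO, and 3 were higher and 15 lower in WT. Of all genes, 31.2% were called higher and 31.2% lower in KO, and 31.8% higher and 31.3% lower in WT. With retinoic acid 2 of the list were higher and 17 lower in KO, and 2 higher and 16 lower in WT. Of all genes, 40.9% were then called higher and 34.6% lower in KO, and 41.0% higher and 32.9% lower in WT. Aff3, which binds the control region of this cluster in mouse embryonic stem cells, rose with retinoic acid by 3.27 ± 0.13 in KO and 2.95 ± 0.13 in WT (adjusted p = 1.1e-18 and 1.2e-17).

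Of 16 genes of the Notch pathway, in which Dlk1 acts, 14 were tested. In KO against WT, 8 were higher and 2 lower in untreated cells, 5 and 2 with doxycycline, and 4 and 4 with retinoic acid. Of all genes, 30.0%, 37.0% and 38.8% were called in either direction. These shares were 15.2%, 17.9% and 18.8% for genes called higher and 14.9%, 19.1% and 20.0% for genes called lower. The receptor gene Notch3 averaged 100.3 ± 0.585 CPM in untreated KO cells and 50.03 ± 1.76 CPM in untreated WT cells (SD, n = 2 each), a log2 change of 1.00 ± 0.06 (adjusted p = 3.3e-13), and was higher by 1.39 ± 0.06 with doxycycline (adjusted p = 7.8e-17). Its change with retinoic acid was lower in KO than in WT by -0.93 ± 0.08 (adjusted p = 9.5e-10). Dlk2, the closest relative of Dlk1, was lower in KO with doxycycline, at 2.47 ± 0.538 CPM against 4.94 ± 0.138 CPM in WT (SD, n = 2 each; log2 change -0.99 ± 0.26, adjusted p = 0.0033). Like Dlk1, Dlk2 rose with doxycycline, by 3.28 ± 0.44 in KO and 4.31 ± 0.40 in WT (adjusted p = 2.5e-07 and 1.9e-10). With retinoic acid Dlk2 rose by 2.16 ± 0.50 in KO and 2.57 ± 0.47 in WT (adjusted p = 0.00035 and 2.2e-05). Untreated Dlk2 lay near the floor, at 0.251 ± 0.0975 CPM in KO and 0.247 ± 0.266 CPM in WT (SD, n = 2 each). The sizes of these rises are therefore uncertain. The receptor gene Notch4 fell with both treatments in both lines, with log2 changes of -4.07 ± 0.17 for doxycycline and -4.13 ± 0.17 for retinoic acid in KO cells (adjusted p = 6.7e-18 and 1.7e-18).

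Of 15 genes of thyroid hormone metabolism and response, in which Dio3 acts, 13 were tested. In KO against WT, 6 were higher and 1 lower in untreated cells, 3 and 6 with doxycycline, and 3 and 4 with retinoic acid, beside the same 30.0%, 37.0% and 38.8% of all genes. Hr, a corepressor of the thyroid hormone receptor, averaged 9.11 ± 0.516 CPM in untreated KO cells and 4.31 ± 0.809 CPM in untreated WT cells (SD, n = 2 each), a log2 change of 1.08 ± 0.18 (adjusted p = 2.7e-05). Dio2, whose deiodinase activates the hormone that Dio3 inactivates, was lower in KO with doxycycline, at 0.984 ± 0.128 CPM against 1.98 ± 0.198 CPM in WT (SD, n = 2 each; log2 change -1.01 ± 0.40, adjusted p = 0.048).

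Markers of other cells moved with the comparisons. The summed level of 12 fibroblast genes, markers of possible feeders, was 60.4 to 60.8 CPM in untreated KO and 35.2 to 38.0 CPM in untreated WT libraries, 59.0 to 67.2 CPM in KO and 29.5 to 31.9 CPM in WT with doxycycline, and 87.8 to 90.0 CPM in KO and 82.7 to 83.1 CPM in WT with retinoic acid. Of these genes 4 to 8 reached 1 CPM in a group, and Fap had no count in untreated KO cells and in all 3 WT groups. With retinoic acid, 8 primitive endoderm markers summed to 7300 to 7720 CPM in KO and 3920 to 4150 CPM in WT libraries, against 196 to 203 CPM in untreated KO and 133 to 141 CPM in untreated WT libraries, and all 8 reached 1 CPM. With doxycycline, 10 trophectoderm markers summed to 1580 to 1690 CPM in KO and 2580 to 2940 CPM in WT libraries, and 9 reached 1 CPM in each. Stem cell markers, 8 genes, summed to 281 to 296 CPM in KO and 396 to 424 CPM in WT with doxycycline. Untreated, they summed to 6630 to 6680 CPM in KO and 5930 to 5940 CPM in WT, and all 8 reached 1 CPM. With retinoic acid they summed to 1330 to 1360 CPM in KO and 2140 to 2240 CPM in WT, and all 8 reached 1 CPM. Pou5f1, supplied here by the inserted copy, is among these 8 genes and makes up much of the retinoic acid sums. It alone averaged 981.5 CPM in KO and 1026 CPM in WT with retinoic acid, and 1193 CPM in KO and 1022 CPM in WT untreated. Neural markers, 8 genes, summed to 268 to 279 CPM in KO and 130 to 136 CPM in WT with doxycycline. Untreated, the neural sums were 418 to 419 CPM in KO and 433 to 441 CPM in WT. The part of these cell types in the levels of the cluster genes was not tested.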

How the data were processed

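The submitters' processing notes name STAR 2.5.3a, RSEM 1.3.0, DESeq2 1.18.1 and the build mm10. RSEM's annotation release and strand setting were not given in the sources used here. For each library the authors deposited, per the file headers, per-gene expected counts, TPM and effective lengths. The expected counts divide shared reads by model, and 9.54% to 11.55% of genes had values that were not whole; they were rounded to whole numbers. Deposited TPM served for levels per length and for 2 alternatives, limma on log2(TPM + 0.1) and log2(TPM + 1), a scale that understates changes of low genes. The deposited effective lengths, values in bases, entered 1 alternative as offsets.

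Of 53379 identifiers, 53274 were found in GENCODE M21 (GRCm38). Genes passing edgeR's filterByExpr (minimum count 10, by group; 17884 genes, all 5 cluster genes among them) entered 1 quasi-likelihood fit of all 12 libraries (edgeR 4.0.16, limma 3.58.1, R 4.3.3), with TMM factors of 0.901 to 1.16 and 6 residual degrees of freedom. The 9 contrasts were adjusted by Benjamini-Hochberg over all genes tested, with a threshold of 0.05. Each SE was taken as the absolute log2 change over the root of edgeR's F. The steps were tested on simulated data. CPM uses rounded counts over TMM-scaled library sizes. Counting intervals are exact at 95%, and with 0 counts in a group the bound uses 3 counts per library. No library was a copy of its replicate: the chi-square of a pair was 1.9 to 6.28 per degree of freedom, above sampling noise. It was highest in the doxycycline groups, at 4.88 in WT and 6.28 in KO, against 1.9 to 2.76 elsewhere. The fit shares its estimate of the spread over all groups. Fitted on the doxycycline libraries alone, KO against WT gave an adjusted p of 0.0013 for Meg3, 4.1e-05 for Rian and 0.0037 for Dlk1 (edgeR).

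The cluster genes and gene lists were chosen with earlier results of these data known. Also named were Phf6 and Pou5f1, genes of the span with at least 10 counts, the 3 nearest tested genes on each side, those within 1 Mb called with an absolute log2 change of at least 1, up to 2 called list members each way per contrast, and the 3 genes most like each cluster gene; of those named by the rule, only some are described, and some are not reported here. The 12 libraries carry no batch in the labels. Alternatives were RLE and upper-quartile factors, no low-count filter, a replicate block, effective-length offsets, only the libraries compared, DESeq2 1.42.0, both TPM scales and leaving out each replicate. A replicate block with crossed numbers was chosen after seeing the data.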

Additional observations from a re-analysis of the deposited data

Results flagged for a closer look

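Of the 5 cluster genes, 3 gave a response to treatment that differed between KO and WT cells in the test of the difference itself (edgeR's quasi-likelihood test, Benjamini-Hochberg over all genes). For Dio3 the log2 change with doxycycline was higher in KO than in WT by 0.94 (adjusted p = 0.0044), and the log2 change with retinoic acid was lower in KO by -1.06 (adjusted p = 0.0014). For Rian the log2 change with retinoic acid was higher in KO by 1.50 (adjusted p = 0.011). For Meg3 the fitted log2 difference was 5.21 with doxycycline (adjusted p = 0.028) and 5.04 with retinoic acid (adjusted p = 0.009); both rest on untreated KO libraries with 0 counts, so their size depends on the prior count of the fit. Over all genes tested, such a difference was called for 19.2% with doxycycline and for 17.7% with retinoic acid. Of 17 alternatives run for each, the doxycycline call was lost in 7 for Meg3 and in 4 for Dio3. The retinoic acid call was lost in 2 and its direction turned in 1 for Meg3, lost in 6 and turned in 1 for Rian, and lost in 1 for Dio3. The causes of these differences were not tested.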

How the results depend on the processing

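Of 45 changes, 5 genes in 9 contrasts, 32 were called, and 19 of these calls held under every alternative run for them. RLE factors and upper-quartile factors kept all 32 calls. The replicate block also kept all 32, with 4, 3 and 4 genes called between KO and WT in untreated, doxycycline-treated and retinoic acid-treated cells. Replicate numbers gave no clear pairing. Deviations of same-numbered libraries correlated between -0.29, for KO and WT with doxycycline, and 0.18, for KO untreated and with doxycycline. Crossed numbers in doxycycline-treated cells, where the correlation was negative, kept 3 calls. Whether libraries shared handling was not tested.

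For doxycycline in KO cells, with 2 genes called, 1 was called without the low-count filter, with effective-length offsets, with only the libraries compared, with DESeq2 and on log2(TPM + 1), and 1 to 2 when a replicate was left out. For doxycycline in WT cells, with 5 called, 2 were on log2(TPM + 0.1) and 3 on log2(TPM + 1). For the difference in doxycycline response, with 2 called, 0 were with effective-length offsets and on both TPM scales, 1 with DESeq2, and 0 to 3 when a replicate was left out. For the difference in retinoic acid response, with 3 called, 1 was on either TPM scale, and 1 to 3 when a replicate was left out.

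Changes that reversed were not called in the fit reported, except those of Meg3 and Rian in the difference in retinoic acid response, at -0.62 and -0.055 on log2(TPM + 1). The others were Dlk1 in untreated cells between the lines (0.031 on log2(TPM + 0.1), 0.023 on log2(TPM + 1)) and with retinoic acid between the lines (-0.036 to 0.13 when a replicate was left out, negative without WT or KO replicate 2), Mirg between the lines with doxycycline (-3.79 to 3.26 when a replicate was left out, positive without replicate 1 of either line), Dio3 with doxycycline in KO (-0.31 to 0.19 when a replicate was left out, positive without untreated replicate 1) and Rian in the difference in doxycycline response (0.0091 on log2(TPM + 1), and -0.59 to 0.17 when a replicate was left out, positive without untreated KO replicate 2). The cause was not tested. Over all genes, calls numbered 5369 between the untreated lines but 3430 on log2(TPM + 0.1) and 3328 on log2(TPM + 1), and 6936 between the retinoic acid-treated lines but 4054 on log2(TPM + 0.1). Calls for the difference in doxycycline response numbered 3425, but 1983 with effective-length offsets, 2232 with DESeq2, 1752 on log2(TPM + 0.1) and 1812 on log2(TPM + 1). Those for retinoic acid numbered 3157, but 1759, 1941, 1395 and 1983 under the same settings. DESeq2 gave no adjusted p for 5 changes. At this depth, values of 3 counts or fewer, as for Mirg with doxycycline in both lines, cannot show a difference.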
